A study of Mus musculus with 8 samples.

Results

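Peroxisomes are single-membrane organelles that shorten very long, branched and dicarboxylic fatty acids, and 38 genes of their enzymes, transporters and assembly factors were followed in the livers of 8 ethanol-fed female mice. The genes were chosen by name from the deposited gene count table (Ensembl IDs with GENCODE M21 symbols): 38 of its 55335 genes, 7 core beta-oxidation enzymes, 4 auxiliary enzymes, 3 enzymes of alpha-oxidation and branched chains, 2 ABCD transporters, 3 other membrane proteins, 4 enzymes that act on carnitine esters, acyl-CoAs or CoA, 2 enzymes of peroxide turnover and 13 peroxins. The knockouts were EtOH-fed Ripk1-hepKO animals, in which Ripk1, a kinase and scaffold of death receptor signalling, was deleted in hepatocytes (mice 28, 34, 37 and 39), and their controls were EtOH-fed Ripk1-Con animals (mice 29, 32, 40 and 41). Every mouse, control or knockout, was female and went through the NIAAA chronic-plus-binge ethanol protocol, so the values compare genotypes under ethanol alone. The Cre line, the alleles that the controls carry, the strain and the ages are not given in the sources used here. Values per mouse below keep the order just given.

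In a peroxisome, acyl-CoAs enter through ABCD transporters, an oxidase takes the first step and passes electrons to oxygen, a bifunctional enzyme adds water and oxidises again, and a thiolase cuts off acetyl-CoA. Catalase removes the hydrogen peroxide that the oxidases make. Peroxins insert membrane proteins, carry enzymes into the matrix and divide the organelle. In rodent liver, the nuclear receptor PPAR-alpha, which fatty acids activate, raises many beta-oxidation genes and also Pex11a, a factor of peroxisome division.

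Counts per library ran from 28038390 to 67328158, and CPM below is a gene's count per 1000000 counts of its library after TMM scaling, which corrects for composition. Ripk1, the deleted gene, stood at 38.1, 35.8, 33.1 and 23.1 CPM in Ripk1-hepKO and at 34.3, 53.6, 27.8 and 34.2 CPM in Ripk1-Con. The groups overlapped for it, so a whole-gene count from whole liver does not check the labels, and each direction below rests on them. Mouse 28 stood apart from the rest, with a mean Spearman correlation of 0.954 with the other libraries against 0.974 to 0.980 for the other 7. It was the lowest of the 8 mice for 26.8% and the highest for 26.3% of the 15234 genes tested. The hepatocyte identity of the tissue was plain, as 8 marker genes summed to 70711 to 90766 CPM in Ripk1-hepKO and to 96201 to 113829 CPM in Ripk1-Con.

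Most member genes lay below their control level in Ripk1-hepKO, the core beta-oxidation enzymes and ABCD transporters further in the median than the peroxins, but no single gene passed the threshold. All 38 met the count filter. By edgeR's quasi-likelihood test, 0 of 38 members passed a false discovery rate (FDR) of 0.05 over all genes, as did 0% of the 15234 genes tested. The DESeq2 Wald test called 0 members and 0.236% of all genes, and limma voom, with or without sample quality weights, called 0 members. At an unadjusted p under 0.05, edgeR counted 7 members lower (18.4%) and 0 higher, while of all genes 6.68% reached that p, 2.82% lower and 3.86% higher. These 7 were Ehhadh, Hsd17b4 and Scp2 of beta-oxidation, the transporter Abcd2, the membrane protein Pxmp4, the oxidase Hao1 and the peroxin Pex11a. No exon of the 7 overlaps an exon on the opposite strand, as exons of 16 other members do, where reads could be shared. Overlap with introns was not checked. The DESeq2 count was 8 with Ech1 added, against 3.3% of all genes lower, while voom counted 7 against 3.23%, and voom with quality weights 12 against 4.41%. Of the 38 members, 31 lay below 0, where 48.2% of all genes tested did. The members' median log2 fold change (Ripk1-hepKO over Ripk1-Con) was -0.11, against 0.01 for all genes tested. The members were chosen with earlier results of these data known, so their counts and median are no independent evidence.

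**Figure D1:**
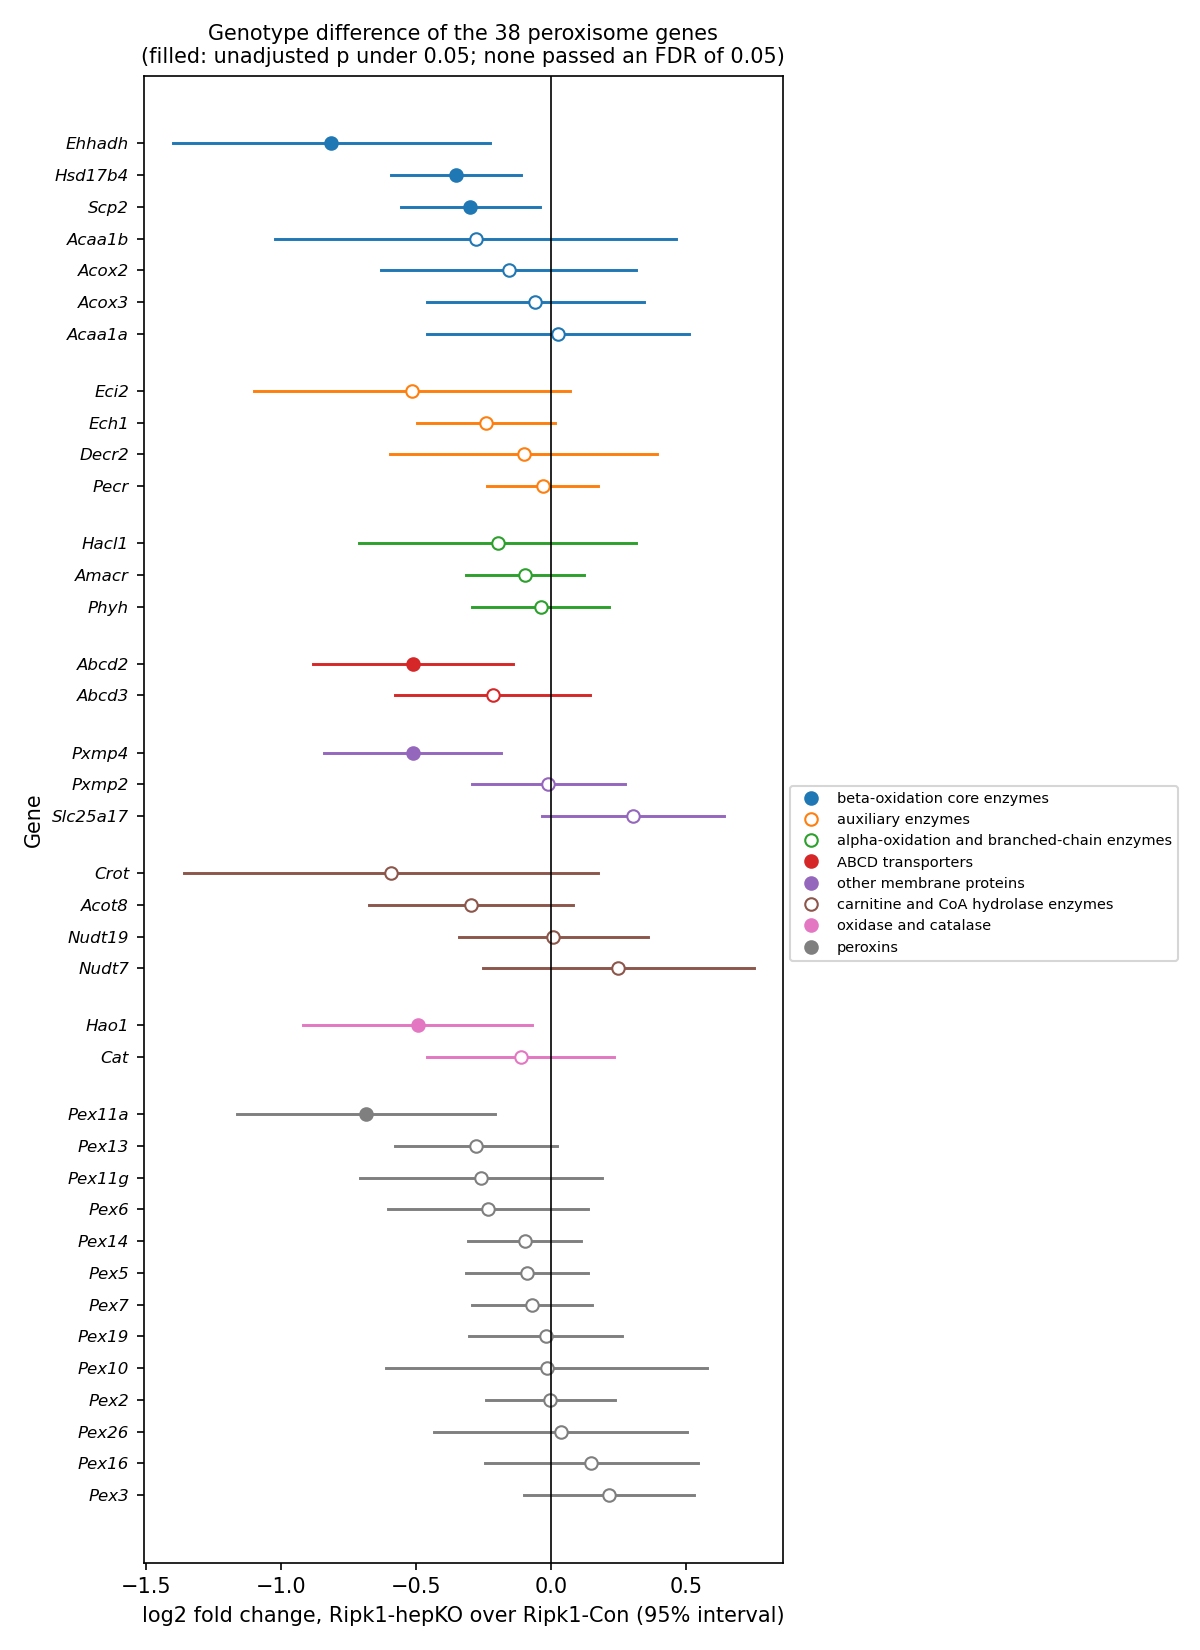
Log2 fold change of each of the 38 genes, Ripk1-hepKO over Ripk1-Con, with its 95% confidence interval on the horizontal axis and genes grouped by role down the page. The 7 filled points have an unadjusted p under 0.05 and all lie below 0, from -0.81 for Ehhadh to -0.30 for Scp2.

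The promoters of the lower members are shown because these genes differed in the same direction. Windows of 250 bases before a RefSeq start (GRCm38.p6) matched 32 of the 38 members, and 5 of the 7 at an unadjusted p under 0.05 are printed. Each is read 5′ to 3′ along the gene's own strand, which is the minus strand for all 5. Capitals mark AGGTCA, the half-site of nuclear receptors, CCAAT and the GC box GGGCGG, each on either strand. The windows are chr16:21787835-21788084 for Ehhadh, chr4:108118548-108118797 for Scp2, chr2:154603674-154603923 for Pxmp4, chr2:134554353-134554602 for Hao1 and chr7:79743132-79743381 for Pex11a. The Scp2 window lies before an internal start, downstream of the first base that GENCODE gives the gene.
Ehhadh: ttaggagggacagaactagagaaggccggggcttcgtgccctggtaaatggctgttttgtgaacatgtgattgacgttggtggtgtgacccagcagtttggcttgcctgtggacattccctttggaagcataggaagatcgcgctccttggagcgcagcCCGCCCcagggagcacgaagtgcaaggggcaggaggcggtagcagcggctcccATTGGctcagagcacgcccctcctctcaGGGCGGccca
Scp2: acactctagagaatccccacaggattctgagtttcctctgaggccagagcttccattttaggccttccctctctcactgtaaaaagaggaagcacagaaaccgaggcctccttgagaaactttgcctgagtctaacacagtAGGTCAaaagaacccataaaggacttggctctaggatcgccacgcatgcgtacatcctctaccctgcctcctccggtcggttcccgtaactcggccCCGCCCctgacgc
Pxmp4: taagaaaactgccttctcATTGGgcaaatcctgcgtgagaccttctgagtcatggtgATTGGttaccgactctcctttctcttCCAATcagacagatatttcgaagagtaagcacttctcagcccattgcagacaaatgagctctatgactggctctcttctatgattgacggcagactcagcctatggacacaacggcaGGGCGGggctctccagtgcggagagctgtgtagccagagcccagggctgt
Hao1: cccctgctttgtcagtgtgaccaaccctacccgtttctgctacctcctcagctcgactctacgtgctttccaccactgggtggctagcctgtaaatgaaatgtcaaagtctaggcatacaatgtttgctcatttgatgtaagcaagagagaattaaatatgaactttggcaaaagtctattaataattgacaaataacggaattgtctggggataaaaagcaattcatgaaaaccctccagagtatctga
Pex11a: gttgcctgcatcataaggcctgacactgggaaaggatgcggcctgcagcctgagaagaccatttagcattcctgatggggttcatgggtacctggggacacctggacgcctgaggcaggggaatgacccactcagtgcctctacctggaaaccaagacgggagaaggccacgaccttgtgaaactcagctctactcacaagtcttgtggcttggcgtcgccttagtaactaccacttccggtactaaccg

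No motif searched stands in all 5 windows, and the GC box stands in 3. Ehhadh holds 2 GC boxes and 1 CCAAT, Pxmp4 holds 3 CCAAT and 1 GC box, and Scp2 holds 1 GC box and the 1 AGGTCA among them, 109 bases before its start. Hao1 and Pex11a hold none of the 3 motifs. Over the members with a window, a direct repeat of AGGTCA with any 1 base between the copies, the form that PPAR-alpha with its partner RXR is known to bind, occurred in 0 of 32, against 0.0407% of all 27025 symbols. The half-site alone, which overlaps that repeat, occurred in 3 of 32 (Cat, Pex11g and Scp2; 9.38%) against 15.8% of all symbols. The GC box was in 22 of 32 (68.8%) against 35.4%, and CCAAT in 15 of 32 (46.9%) against 37.5%. These shares are over unlike sets, as all members met the count filter and the 27025 symbols were not limited to genes that did. Base composition differed as well: the median GC content was 56.4% in the members' windows and 52.4% in all windows. The median number of CpG was 12 and 6 in the same order. A match in letters is a description, and sequence outside these windows was not searched.

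Of the core beta-oxidation genes, those of both bifunctional proteins and Scp2 had an unadjusted p under 0.05 and lay below control. Those of the oxidases and of the thiolases Acaa1a and Acaa1b did not reach that p. Ehhadh (chromosome 16, 21761287 to 21787807, minus strand) encodes the bifunctional enzyme that hydrates and oxidises straight-chain and dicarboxylic acyl-CoAs. It stood at 256, 128, 238 and 218 CPM in Ripk1-hepKO and at 515, 329.8, 255 and 379 CPM in Ripk1-Con. Only mouse 28 of the knockouts reached the lowest control, mouse 40, so the groups touched at a single pair. This is a log2 fold change of -0.81 ± 0.26 (SE), or 56.8% of the control level with a 95% interval of 37.8% to 85.4% (edgeR unadjusted p = 0.0118, adjusted p = 0.742). No other member had a larger log2 fold change in size.

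Hsd17b4 (chromosome 18, 50128201 to 50196269, plus strand) encodes the D-bifunctional protein, which handles very long and branched chains and the side chain of bile acids. Its levels were 341, 293, 351 and 351 CPM in Ripk1-hepKO and 438, 452, 395 and 421 CPM in Ripk1-Con. All 4 knockouts lay below all 4 controls. Its log2 fold change was -0.35 ± 0.11 (SE; edgeR unadjusted p = 0.00903, adjusted p = 0.742), or 78.3% of the control level. Scp2 (chromosome 4, 108043839 to 108144998, minus strand) encodes a thiolase for branched chains and a sterol carrier protein, which a whole-gene count does not separate. It stood at 1526, 1605, 1678 and 1371 CPM in Ripk1-hepKO and at 1918, 2049, 1762 and 1876 CPM in Ripk1-Con, again with no overlap. On the log2 scale it differed by -0.30 ± 0.11 (SE; edgeR unadjusted p = 0.0274, adjusted p = 0.742). The unadjusted p was 0.0732 without mouse 39, 0.0546 without mouse 29, 0.0730 without mouse 32 and 0.0551 without mouse 41. Of the distinct 75-base windows of its transcripts, 25.6% also occur in the pseudogene Scp2-ps2, so part of its reads may be split.

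Acaa1a and Acaa1b encode the peroxisomal 3-oxoacyl-CoA thiolases, and Acaa1b spread widely among mice. Acaa1b stood at 382, 136, 342 and 285 CPM in Ripk1-hepKO and at 525, 255, 293 and 317 CPM in Ripk1-Con. The lowest and the highest mouse differed 2.81-fold in Ripk1-hepKO and 2.06-fold in Ripk1-Con, and the groups overlapped (difference of -0.28 ± 0.33 on the log2 scale, SE; edgeR unadjusted p = 0.417). Without mouse 29 its log2 fold change was -0.01, and without mouse 34 it was -0.04. Acaa1a averaged 106 ± 27.0 CPM in Ripk1-hepKO and 104 ± 25.8 CPM in Ripk1-Con (SD, n = 4 each), and its log2 fold change of 0.02 turned negative without mouse 28, 32, 37, 40 or 41. The 2 thiolases share sequence, as 24.4% of the 75-base windows of Acaa1b occur in Acaa1a, so the split of reads between them is uncertain. Acox2 and Acox3, oxidases of branched acyl-CoAs, had log2 fold changes of -0.16 and -0.06. Both were lowest in mouse 28, at 138 and 14.6 CPM, and without that mouse the values were 0.015 and 0.089.

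The auxiliary enzymes, which act on unsaturated chains, had 4 of 4 members below 0 with 0 of 4 at an unadjusted p under 0.05. Eci2, an enoyl-CoA isomerase, stood at 178, 115, 213 and 115 CPM in Ripk1-hepKO and at 269, 274, 151 and 194 CPM in Ripk1-Con (difference of -0.52 ± 0.26 on the log2 scale, SE; edgeR unadjusted p = 0.0769). Mice 34 and 39 were the low ones, and mice 28 and 37 lay among the controls. Ech1, a dienoyl-CoA isomerase also found in mitochondria, stood at 183, 197, 212 and 179.5 CPM in Ripk1-hepKO and at 259, 229.6, 201 and 222 CPM in Ripk1-Con. Its log2 fold change was -0.24 ± 0.11 (SE; edgeR unadjusted p = 0.0616), the smallest p in this class. Decr2 and Pecr, the reductases of dienoyl-CoA and trans-2-enoyl-CoA, lay at -0.10 and -0.03.

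Alpha-oxidation removes 1 carbon from phytanic acid, which beta-oxidation cannot start on. Of the 3 genes of alpha-oxidation and branched chains, 0 reached an unadjusted p under 0.05. Phyh, which hydroxylates phytanoyl-CoA, averaged 970.2 ± 66.3 CPM in Ripk1-hepKO and 997 ± 80.9 CPM in Ripk1-Con (SD, n = 4 each), which is -0.04 on the log2 scale with a 95% interval from -0.29 to 0.21. Amacr, the racemase that turns branched acyl-CoAs into the form the oxidases accept, stood at 77.0, 88.2, 80.3 and 82.9 CPM in Ripk1-hepKO and at 99.0, 84.0, 83.7 and 84.8 CPM in Ripk1-Con (difference of -0.10 ± 0.10 on the log2 scale, SE; edgeR unadjusted p = 0.339). Hacl1, the lyase that cuts 2-hydroxyacyl-CoA, was 414 CPM in mouse 28 and 222 to 239 CPM in the other 3 knockouts, against 248 to 394 CPM in Ripk1-Con. Without mouse 28 its log2 fold change of -0.20 became -0.46, and without mouse 29 it became -0.08. An overlapping gene on the same strand, Gm49387, holds 25.6% of its 75-base windows.

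The ABCD transporters import acyl-CoAs, and of the 2 measured the scarcer one carried the larger difference. Abcd2 (chromosome 15, 91145871 to 91191799, minus strand), a half-transporter for very long unsaturated chains, stood at 30.0, 31.0, 35.2 and 48.7 CPM in Ripk1-hepKO and at 56.9, 53.0, 44.2 and 52.5 CPM in Ripk1-Con. The 3 lowest values were knockouts, while mouse 39 lay above control mouse 40. Abcd2 thus differed by -0.51 ± 0.16 (SE) on the log2 scale, or 70.1% of control with a 95% interval of 54.2% to 90.7% (edgeR unadjusted p = 0.0120, adjusted p = 0.742). Abcd3 (chromosome 3, 121758774 to 121815302, minus strand), known as PMP70 and used by dicarboxylic and branched chains, stood at 470.2, 306, 492 and 491 CPM in Ripk1-hepKO and at 519.5, 522, 535 and 468 CPM in Ripk1-Con. Mouse 34 alone was low, and the other 3 knockouts reached control mouse 41. Abcd3 differed by -0.22 ± 0.16 (SE; edgeR unadjusted p = 0.208) on the log2 scale and by -0.07 without mouse 34. Per kilobase of annotated exon, Abcd3 averaged 66.7 CPM in Ripk1-hepKO and 77.6 CPM in Ripk1-Con, and Abcd2 averaged 6.09 and 8.69 CPM in the same groups.

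**Figure D2:**
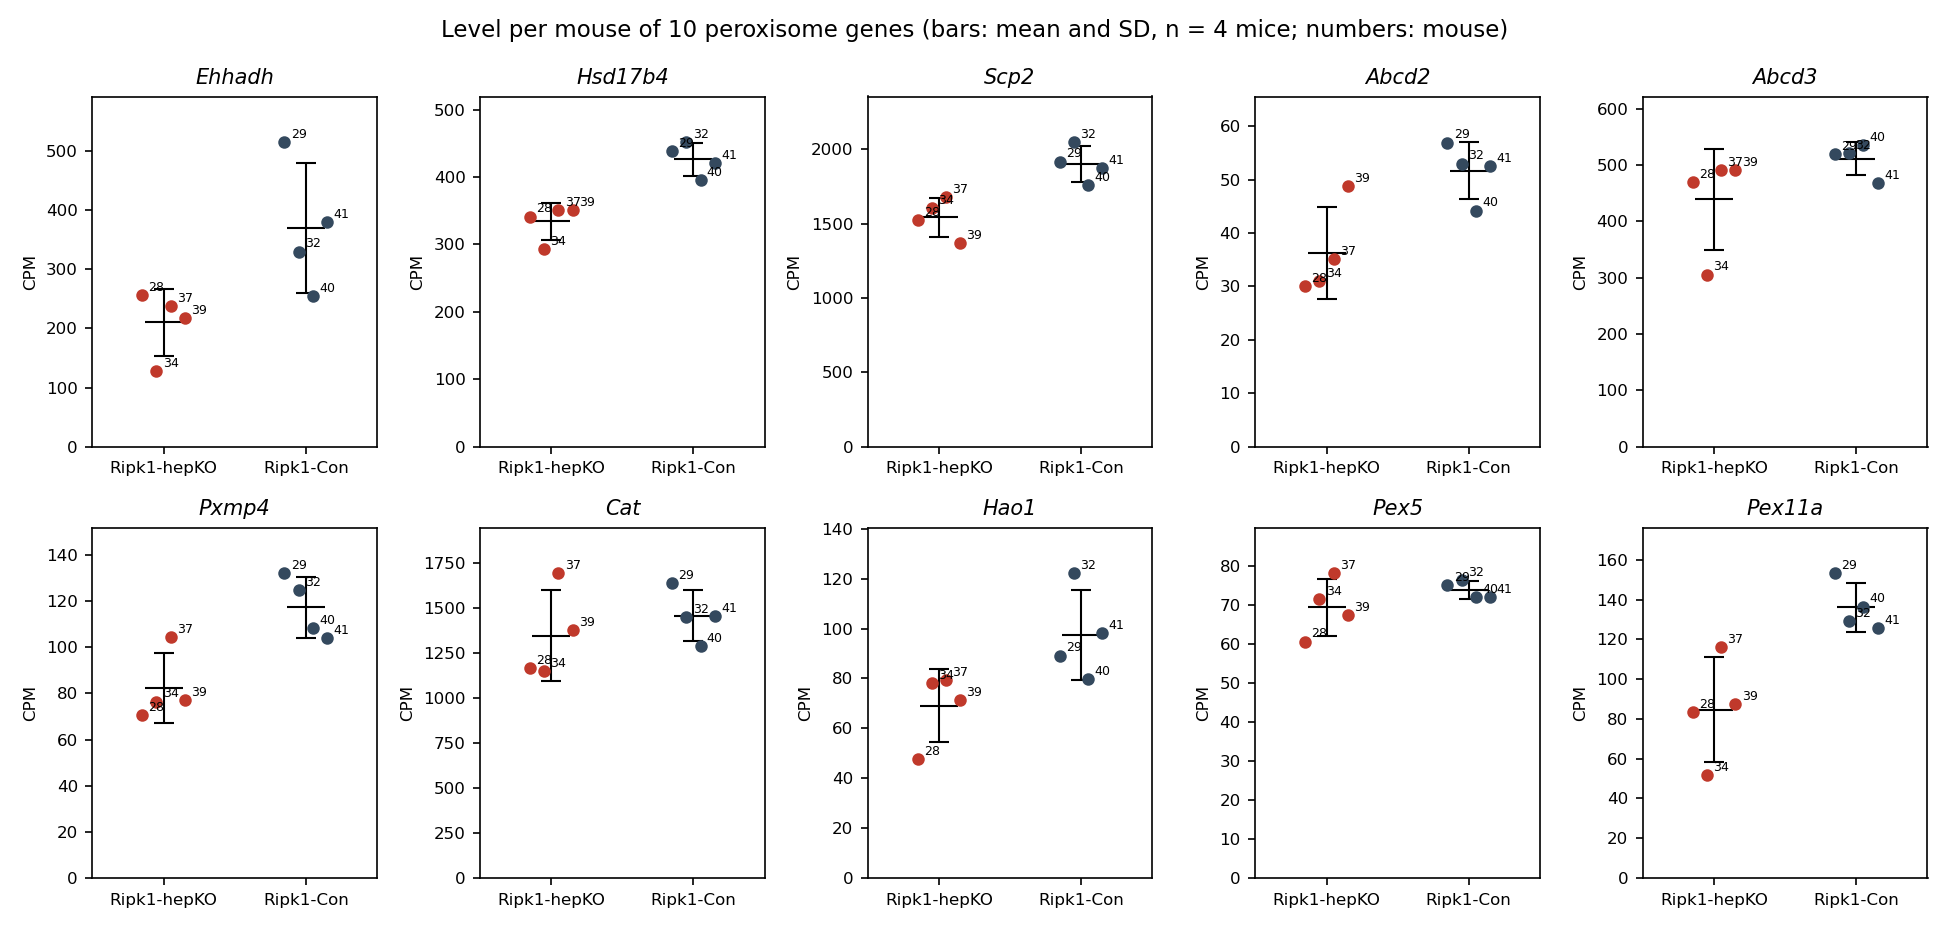
CPM of 10 genes in each mouse (vertical axes from 0, points numbered by mouse, bars for mean and SD of 4 mice), with Ripk1-hepKO left of Ripk1-Con. The points of the groups do not overlap for Hsd17b4, Scp2, Hao1 and Pex11a, and they overlap for Ehhadh, Abcd2, Pxmp4, Abcd3, Cat and Pex5.

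Among the other membrane proteins, Pxmp4 had the smallest unadjusted p of all 38 members. Pxmp4 (chromosome 2, 154585758 to 154603708, minus strand), a small peroxisomal membrane protein, stood at 70.7, 76.5, 105 and 77.1 CPM in Ripk1-hepKO and at 132, 125, 108 and 104 CPM in Ripk1-Con. Mouse 37 just passed control mouse 41, and the other 3 knockouts lay below every control. The log2 fold change was -0.51 ± 0.15 (SE; edgeR unadjusted p = 0.00610, adjusted p = 0.742). Slc25a17, a carrier of CoA, FAD and other cofactors, lay above 0, at 46.8, 34.6, 40.8 and 48.1 CPM in Ripk1-hepKO and at 29.4, 30.5, 41.4 and 37.002 CPM in Ripk1-Con. It had the largest positive log2 fold change of the members, 0.30 ± 0.15 (SE; edgeR unadjusted p = 0.0733), with overlapping groups. Pxmp2, a channel of the membrane, averaged 64.0 ± 6.74 CPM in Ripk1-hepKO and 64.5 ± 9.30 CPM in Ripk1-Con (SD, n = 4 each).

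Products leave the peroxisome as carnitine esters or free acids. Of the genes in this class, Crot spread widely in both groups, while Acot8, Nudt7 and Nudt19 spread more in Ripk1-hepKO than in Ripk1-Con. Crot, which moves medium chains from CoA to carnitine, stood at 528, 204, 341 and 242 CPM in Ripk1-hepKO and at 737, 535, 347 and 365 CPM in Ripk1-Con. Its log2 fold change was -0.59 ± 0.34 (SE; edgeR unadjusted p = 0.114). It depended on single mice, being -0.92 without mouse 28 and -0.34 without mouse 29. Acot8, a thioesterase that frees acids from CoA, stood at 12.0, 7.28, 12.0 and 10.47 CPM in Ripk1-hepKO and at 13.1, 13.7, 12.5 and 12.0 CPM in Ripk1-Con (difference of -0.30 ± 0.17 on the log2 scale, SE; edgeR unadjusted p = 0.1103), and without mouse 34 that difference was -0.15. Nudt7 and Nudt19, which degrade CoA, had log2 fold changes of 0.25 and 0.0071. For Nudt7, mouse 28 stood at 92.6 CPM and the other 7 mice at 44.4 to 65.1 CPM, and without mouse 28 the log2 fold change was -0.014.

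Of the enzymes of peroxide turnover, the oxidase differed more than catalase. Hao1 (chromosome 2, 134497361 to 134554368, minus strand), which oxidises glycolate, stood at 47.6, 78.0, 79.4 and 71.2 CPM in Ripk1-hepKO and at 89.1, 122, 79.9 and 98.2 CPM in Ripk1-Con. The groups did not overlap, by the narrow gap between mouse 37 and control mouse 40. Hao1 differed by -0.50 ± 0.19 (SE; edgeR unadjusted p = 0.0264, adjusted p = 0.742) on the log2 scale, and the unadjusted p was 0.0828 without mouse 32 and 0.0521 without mouse 41. Cat, catalase, stood at 1165, 1150.3, 1694 and 1380.0 CPM in Ripk1-hepKO and at 1638, 1449, 1292 and 1456 CPM in Ripk1-Con. Both the lowest and the highest of the 8 values were knockouts, mice 34 and 37 (difference of -0.11 ± 0.15 on the log2 scale, SE; edgeR unadjusted p = 0.475).

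Among the 13 peroxins, Pex11a had the largest log2 fold change in size, and the genes of the import machinery did not reach an unadjusted p under 0.05. Pex11a (chromosome 7, 79735957 to 79743131, minus strand) elongates peroxisomes before they divide. It stood at 83.4, 51.7, 116 and 87.4 CPM in Ripk1-hepKO and at 153, 129, 136 and 126 CPM in Ripk1-Con, with all 4 knockouts below all 4 controls. That is a log2 fold change of -0.69 ± 0.21 (SE), or 62.2% of control with a 95% interval of 44.6% to 86.6% (edgeR unadjusted p = 0.00995, adjusted p = 0.742). Its relative Pex11g stood at 17.8, 29.6, 32.1 and 35.9 CPM in Ripk1-hepKO and at 39.7, 32.7, 30.9 and 34.8 CPM in Ripk1-Con. Mouse 28 was the low one, and without it the log2 fold change of Pex11g was -0.085, against -0.26 with all mice.

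Pex5, the receptor that brings most matrix enzymes to the membrane, stood at 60.7, 71.6, 78.2 and 67.5 CPM in Ripk1-hepKO and at 75.1, 76.6, 72.1 and 72.1 CPM in Ripk1-Con (difference of -0.09 ± 0.10 on the log2 scale, SE; edgeR unadjusted p = 0.392). Pex7, the receptor for a second targeting signal, lay at -0.07, and Pex13 and Pex14, which dock the receptors, lay at -0.28 and -0.10. Pex2 and Pex10, ubiquitin ligases that prepare the receptor for export, lay at -0.0036 and -0.02. Pex6, an ATPase that pulls the receptor out, and its anchor Pex26 lay at -0.24 and 0.03. Pex6 depended on mouse 28, which had 28.8 CPM against 44.0 to 50.2 CPM in the other 3 knockouts, and its value was -0.084 without that mouse. Pex3, Pex16 and Pex19, which insert membrane proteins, lay at 0.21, 0.15 and -0.02, and without mouse 28 Pex3 was at 0.081 and Pex16 at 0.0030. None of the 12 peroxins other than Pex11a had an unadjusted p under 0.05.

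The ABCD transporters, core enzymes and peroxins were set side by side, and no test was made between these classes. The 2 ABCD transporters had a median log2 fold change of -0.36, the 7 core enzymes one of -0.28 and the 13 peroxins one of -0.07. At an unadjusted p under 0.05, 1 of 2 transporters, 3 of 7 core enzymes and 1 of 13 peroxins were lower, which for the peroxins is 7.69% against 2.82% of all genes. The mean log2 CPM of the core enzymes was 7.67, 7.40, 7.85 and 7.68 in Ripk1-hepKO and 8.17, 7.85, 7.78 and 7.96 in Ripk1-Con. In that mean mouse 37 lay among the controls and mouse 34 lowest. For the peroxins the means were 5.04, 5.03, 5.25 and 5.16 in Ripk1-hepKO and 5.31, 5.19, 5.26 and 5.19 in Ripk1-Con, so mouse 37 again lay among the controls. The groups did not overlap for 4 members, all lower in Ripk1-hepKO (10.5%), where 2.09% of all genes were separated in that direction. No member was separated in the higher direction, as 2.01% of all genes were.

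**Figure D3:**
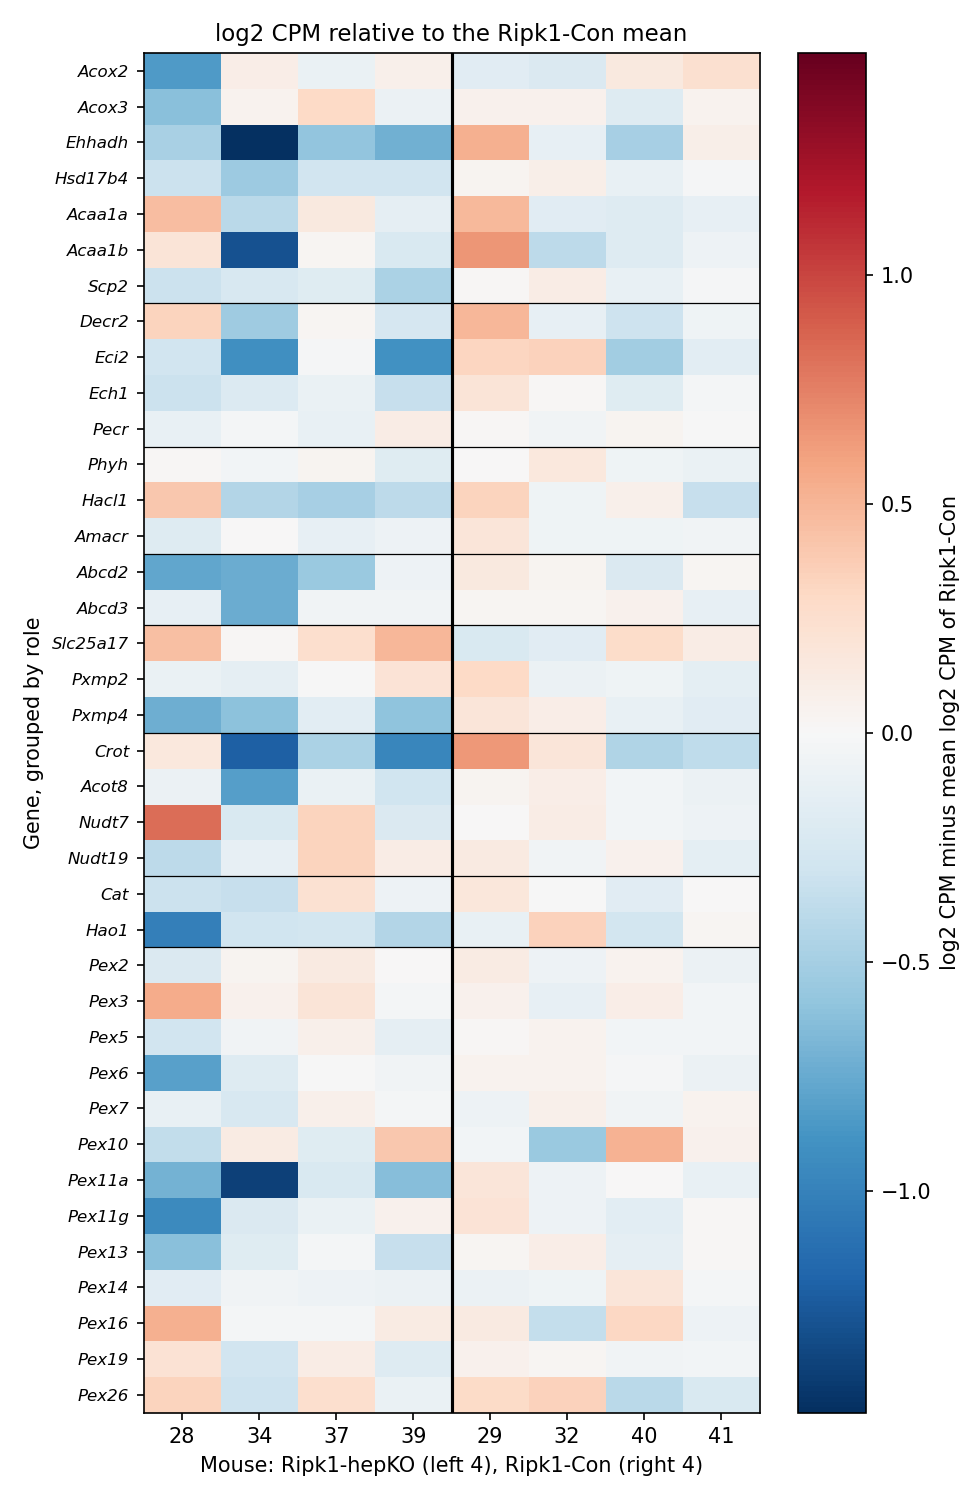
Log2 CPM of the 38 genes in each mouse minus the mean of the 4 Ripk1-Con mice, with genes grouped by role (lines) and Ripk1-hepKO mice left of Ripk1-Con mice. Mouse 34 is the lowest of the 8 for 14 genes and mouse 28 for 13, while mouse 29 is the highest for 12.

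The members did not vary as a block among the mice. Mouse 34 was the lowest of the 8 for 14 of 38 members, and 11 of these were not peroxins, while it was lowest for 9.40% of all genes tested. Mouse 28 was lowest for 13 members, 6 of them peroxins, and highest for 5, against 26.8% and 26.3% of all genes. Mouse 29 was the highest for 12 members, against 11.7% of all genes. Knockout mouse 28 and control mouse 29 were the highest of the 8 mice for Acaa1a, Acaa1b, Decr2 and Hacl1, while Ehhadh was high in mouse 29 and not in mouse 28. These 4 were picked after their values were seen. The members together took 0.738%, 0.683%, 0.883% and 0.826% of all counts in Ripk1-hepKO and 0.990%, 0.853%, 0.890% and 0.864% in Ripk1-Con, where mouse 37 overlapped the controls.

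Levels per kilobase of annotated exon, averaged over the mice of a group, set 3 genes far above the rest. Cat averaged 516 CPM per kilobase in Ripk1-hepKO and 558 in Ripk1-Con, Phyh 513 and 527 in the same groups, and Scp2 444 and 547. Acaa1b followed at 146 in Ripk1-hepKO and 177 in Ripk1-Con. Ehhadh and Hsd17b4 were almost alike in Ripk1-Con, at 124 and 125 CPM per kilobase, while in Ripk1-hepKO they averaged 70.5 and 98.2. Pex11a had the highest mean of the peroxins in both groups, at 26.6 in Ripk1-hepKO against 42.8 in Ripk1-Con. In Ripk1-hepKO, Pex16 nearly matched it at 26.3. Pex10 was the scarcest member, at 1.04 and 1.06 in the same groups.

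Genes around these members, from lists written with earlier results of these data known, gave the setting. Of 22 other peroxisome genes, 21 were tested, 14 lay below 0, and at an unadjusted p under 0.05 there were 3 lower and 1 higher. Of all genes tested, 2.82% were lower and 3.86% higher at that p. Lonp2, a peroxisomal protease, averaged 239 ± 18.2 CPM in Ripk1-hepKO and 297 ± 12.2 CPM in Ripk1-Con, and Mlycd, malonyl-CoA decarboxylase, 49.7 ± 6.96 and 64.9 ± 9.31 CPM in those groups (SD, n = 4 each). Mpv17l, the higher one, averaged 12.7 ± 2.17 CPM in Ripk1-hepKO and 8.45 ± 1.34 CPM in Ripk1-Con. The adjusted p was 0.742 for Lonp2, Mlycd and Mpv17l alike (edgeR). Of 3 fission genes, Dnm1l, the dynamin that cuts peroxisomes and mitochondria, averaged 37.05 ± 1.09 and 43.4 ± 3.67 CPM in those groups (edgeR unadjusted p = 0.0345), while Fis1 and Mff did not reach that p. The 3 tested genes of ether lipid synthesis had a median log2 fold change of -0.11, with none at that p.

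Ppara itself, the receptor, stood at 34.9, 45.7, 102 and 62.0 CPM in Ripk1-hepKO and at 139, 129, 77.1 and 135 CPM in Ripk1-Con, so 3 of 4 knockouts lay below every control. Its log2 fold change was -0.97 ± 0.33 (SE; edgeR unadjusted p = 0.0149, adjusted p = 0.742). Its 4 listed partners did not reach an unadjusted p under 0.05. Of 20 PPAR-alpha targets outside peroxisomes, 16 lay below 0, with a median of -0.45 on the log2 scale. At an unadjusted p under 0.05, 14 were lower and 0 higher, where 2.82% of all genes were lower and 3.86% higher. That list was known from earlier results of these data to be low, so its count is no independent evidence. The 3 with the smallest p were the omega-hydroxylases Cyp4a10, Cyp4a14 and Cyp4a31, at -0.91, -1.02 and -0.94.

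No cell type marker passed an FDR of 0.05. Of 8 hepatocyte markers, 7 lay below 0 (median -0.18 on the log2 scale). At an unadjusted p under 0.05, 2 were lower (Alb and Apoa1), where 2.82% of all genes were. The summed level of the 8 did not overlap between the groups, but Alb made up most of it. Alb averaged 61422 CPM in Ripk1-hepKO and 82554 CPM in Ripk1-Con. Taken singly, 2 of the 8 (Alb and Ttr) lay lower without overlap, as 2.09% of all genes did. Fewer hepatocytes and less of these RNAs per hepatocyte cannot be told apart in whole liver. Monocyte and macrophage markers had 7 of 7 members above 0 and summed to 62.7 to 134.8 CPM in Ripk1-hepKO and to 27.4 to 102.3 CPM in Ripk1-Con. Stellate cell markers had 6 of 6 above 0, with 1 (Lrat) at an unadjusted p under 0.05, where 3.86% of all genes were higher. They summed to 60.0 to 145.1 CPM in Ripk1-hepKO and to 42.6 to 71.0 CPM in Ripk1-Con. Neutrophil markers, 5 of 5 tested above 0, summed to 9.69 to 45.02 CPM in Ripk1-hepKO and to 3.39 to 31.97 CPM in Ripk1-Con. Kupffer cell markers, 5 of 6 above 0, summed to 179.6 to 278 and 69.8 to 317 CPM in those groups. For each of these lists, mouse 28 gave the highest knockout sum and mouse 40 the lowest control sum. In mice 34, 37 and 39 the stellate cell sums were 68.7, 60.0 and 86.5 CPM. The monocyte and macrophage sums of those mice were 66.1, 82.3 and 62.7 CPM. Endothelial markers had 4 of 5 above 0, cholangiocyte markers 4 of 4, T and NK cell and B cell markers 1 of 3 tested each, and erythroid markers 0 of 3. Of the adipose markers Plin1 and Cfd were at 0 counts in every library. The part of these cell markers in the peroxisome results was not tested.

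**Figure D4:**
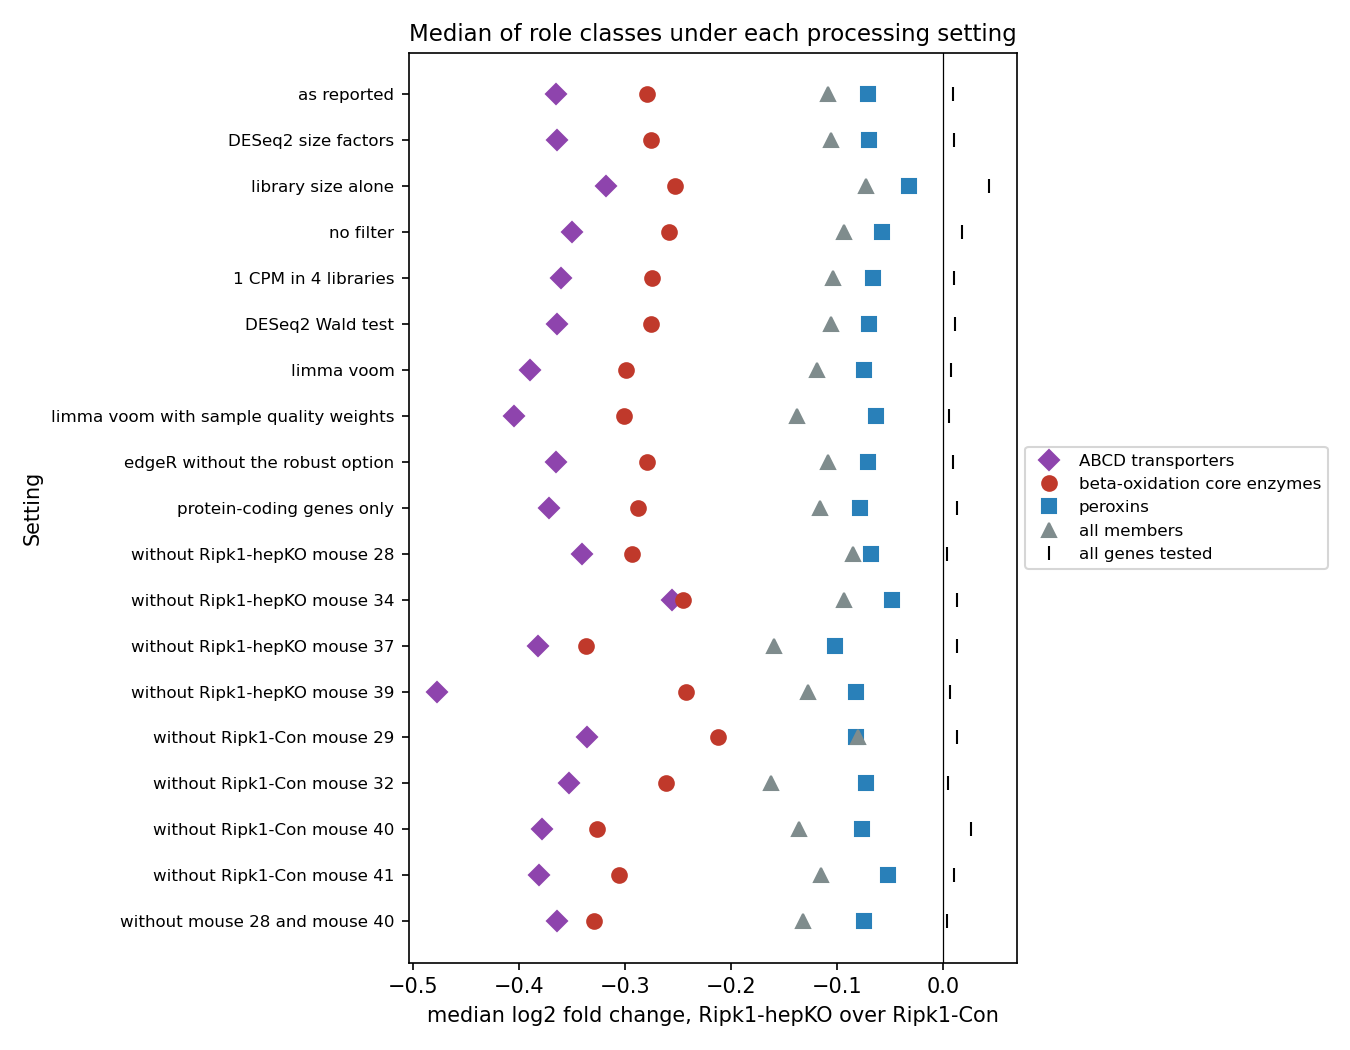
Median log2 fold change (horizontal axis, Ripk1-hepKO over Ripk1-Con) of 3 role classes, of all 38 members and of all genes tested under each processing setting (rows). Under the settings drawn, transporters and core enzymes stay below -0.21 and peroxins between -0.10 and -0.03.

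The 5 members Ehhadh, Hsd17b4, Abcd2, Pxmp4 and Pex11a had an unadjusted p under 0.05 in each of the 18 alternative settings. These settings refit the same libraries, all or some of them, so they are not independent tests. The share of all genes that stay under that p in every setting is not given here, so this count has no background. With mice 28 and 40 both left out, 11 members were lower and 1, Slc25a17, higher at that p. Of the 15303 genes tested in that setting, 1451 reached that p, 737 of them lower. Slc25a17 was also higher at that p without mouse 34 alone and without mouse 40 alone.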

How the data were processed

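Bulk liver RNA of 4 Ripk1-hepKO and 4 Ripk1-Con mice was poly(A)-selected, dUTP-stranded and read from both ends at 150 bp, per the labels' protocols. The authors deposited a table of raw whole-number counts per gene. Build GRCm38.p6 and the tools StringTie 2.2.1, DESeq2 1.38.1, STAR 2.5.2b and FastQC 0.11.5 are listed per the submitters' processing notes, with no role, while the counter and its strand setting are not given in the sources used here, so antisense overlaps are uncertain. Symbols came from GENCODE M21 (GRCm38), which matched 55154 of 55335 IDs. No pair of libraries was alike within sampling noise (chi-square per degree of freedom at least 37.6).

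Genes passing filterByExpr (15234) were fitted with edgeR 4.0.16 in R 4.3.3 (TMM, robust quasi-likelihood, genotype alone, two-sided, Benjamini-Hochberg over all genes tested, FDR 0.05). The common biological coefficient of variation was 0.292. The fit was tested on simulated data. Alternatives used limma 3.58.1, DESeq2 1.42.0, other scalings and filters, and mice left out. Members, lists and rules, including which members get values per mouse (unadjusted p under 0.05, smallest p per class, both transporters, Cat and Pex5; others shown were added after their values were seen), were chosen with earlier results of these data known. Promoter windows came from the RefSeq table for GRCm38.p6, and shared sequence was counted over 75-base windows of GENCODE transcripts. Of the list of other peroxisome genes, 1 gene is counted but not reported here.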

Additional observations from a re-analysis of the deposited data

Results flagged for a closer look

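Of 76 groups of 4 mice checked for a single distant value (38 genes in 2 genotypes), 6 were flagged, where chance gives about 1 in 20 (3.8). In Ripk1-hepKO, Hacl1 in mouse 28 was high at 414 CPM with the other 3 mice at 222 to 239 CPM, and Abcd3 in mouse 34 was low at 306 CPM with the others at 470.2 to 492 CPM. In Ripk1-Con, mouse 29 was high for Acaa1a at 143 CPM (others 89.4 to 93.5 CPM), for Amacr at 99.0 CPM (others 83.7 to 84.8 CPM) and for Pxmp2 at 78.3 CPM (others 58.2 to 61.4 CPM). Acox3 in control mouse 40 was low at 19.7 CPM, with the others at 23.2 to 23.5 CPM.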

How the results depend on the processing

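No member passed an FDR of 0.05 under any of the 18 alternatives run, with a lowest adjusted p of 0.194 (DESeq2 Wald test), and over all genes that test called 36 where the other alternatives called 0. The 7 members at an unadjusted p under 0.05 became 12 with voom sample quality weights, 12 without mice 28 and 40, and 5 to 10 with each mouse left out in turn. The count over all genes moved too, from 1017 of 15234 to 1334 of 15234 with quality weights. It was 1451 of 15303 without mice 28 and 40, and 633 to 1409 with each mouse left out. All these members were lower except Slc25a17, which was higher at that p when mouse 34, mouse 40, or mouse 28 together with mouse 40 was left out. Scp2 missed that p without mouse 39, 29, 32 or 41, and Hao1 with library size alone and without mouse 32 or 41. The peroxin median was -0.032 with library size alone, a scaling that put the median of all genes at 0.044. The median of the 3 other membrane proteins ran from -0.081 (without mouse 39) to 0.095 (without mouse 29) with each mouse left out.

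Of the 38 members, 25 kept the sign of their log2 fold change in every alternative and 13 did not. The sign turned with library size alone for Pecr (0.0034), Pex10 (0.013), Pex19 (0.0048), Pex2 (0.033) and Pxmp2 (0.030) and with no filter on low counts for Pex2 (0.011) and Pxmp2 (0.0040). It turned with a filter of 1 CPM in 4 libraries for Pex2 (0.00016) and with voom for Nudt19 (-0.012) and Pex10 (0.054). It turned with quality weights for Acaa1a (-0.17), Nudt7 (-0.010), Pex10 (0.16), Pex2 (0.047) and Pex26 (-0.063) and without mice 28 and 40 for Acaa1a (-0.21), Acox2 (0.059), Acox3 (0.031), Nudt7 (-0.030), Pecr (0.0060), Pex10 (0.29), Pex2 (0.078) and Pex26 (-0.19). With each mouse left out, the value ran for Acaa1a from -0.14 to 0.21, Acox2 from -0.25 to 0.015, Acox3 from -0.19 to 0.089, Decr2 from -0.26 to 0.089, Nudt19 from -0.12 to 0.12 and Nudt7 from -0.014 to 0.38. It ran for Pex10 from -0.18 to 0.19, Pex19 from -0.11 to 0.062, Pex2 from -0.049 to 0.061, Pex26 from -0.076 to 0.15, Phyh from -0.073 to 0.017 and Pxmp2 from -0.081 to 0.095. The cause of these turns was not tested. No paired analysis was made because the labels give no pairing of the mice. With 4 mice a group, the 95% intervals of most members span both directions.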
